A study of Homo sapiens with 14 samples.

Results

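The transcripts described here encode 9 proteins that write, erase or read the methylation of cytosine in DNA: TET1, TET2, TET3, DNMT1, DNMT3A, DNMT3B, UHRF1, TDG and MBD2. They were chosen by name, and they are 9 of the 23106 gene symbols with a deposited count in every library. Polyadenylated RNA was sequenced from PC3 cells, a human prostate cancer line, and from HCT116 cells, a human colorectal cancer line. Cells of each line were kept in normoxia (21% O2) or in hypoxia (0.5% O2 for 16 h), with 4 libraries per condition in PC3 and 3 in HCT116. No group carried a deletion, a transgene or a drug. PC3 was grown in a DMEM and Ham's F12 mixture and HCT116 in McCoy's 5a, both with fetal bovine serum, so the line and its medium cannot be told apart.

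DNMT1 copies methylation onto the daughter strand after replication, and UHRF1 brings it to CpG sites at which only the parental strand is methylated. DNMT3A and DNMT3B place methyl groups at sites that had none. The TET enzymes are dioxygenases that use molecular oxygen and oxoglutarate to oxidise methylcytosine, TDG cuts out the most oxidised forms for base excision repair, and MBD2 binds methylated CpG and recruits the NuRD repressor complex. The counts measure the transcripts of these enzymes, not their activity and not the methylation of DNA.

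The libraries held 98021966 to 123935458 gene counts in normoxic PC3 cells, 71228454 to 96159803 in hypoxic PC3 cells, 136931675 to 147934177 in normoxic HCT116 cells and 133067391 to 150630928 in hypoxic HCT116 cells. Every hypoxic PC3 library was thus shallower than every normoxic one. The rarest of the 9 transcripts, TET1, was covered by 189 to 747 counts per library, and the most abundant, DNMT1, by 19385 to 50630. Among the PC3 libraries, hypoxia replicate 4 lay farthest out on the first principal component, which held 33.3% of the variance. Hypoxia replicate 1 lay farthest out on the second, with 27.1%. Several hypoxia responses in PC3 that rest on them are therefore given with and without them. The family shares and the correlations are given with all libraries only. The hypoxia response was present in both lines: all 10 classical targets of the hypoxia-inducible factors (HIF) that were examined, such as NDRG1, were past the threshold as higher in each. Of 10 prostate markers, 6 exceeded 1 CPM (counts per 1000000 counts of a library) in PC3, HOXB13 among them, and 4 in HCT116, with a summed level of 175 to 195 CPM in PC3 and 44.2 to 48.4 CPM in HCT116, while KLK2, KLK3 and FOLH1 were at or under 3 counts in all 8 PC3 libraries. CDX2, an intestinal transcription factor, was present in HCT116 at 15.8 to 19.9 CPM and was at 0 in PC3, whereas CDX1 was at 0 in both lines. Of 10 colon markers 3 exceeded 1 CPM in each line, and their summed level was 293 to 371 CPM in HCT116 and 415 to 455 CPM in PC3, so this list did not mark HCT116 apart from PC3.

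Promoter windows from RefSeq on GRCh38.p14, from 250 bases before to 50 bases after an annotated start, were found for all 9 genes, in 20 windows. Those of 3 genes are printed, chosen for their hypoxia responses. TDG was past the threshold as lower in hypoxia in both lines. DNMT3B was past it as lower in HCT116, and in PC3 in some fits but not the main one. TET1 was past it as higher in hypoxia in HCT116. Capitals mark the letters ACGTG and GCGTG on either strand, the core to which HIF binds, and CACGTG matches on both strands at once. The windows run 5′ to 3′ on the plus strand.
TDG, chr12:103965622-103965921: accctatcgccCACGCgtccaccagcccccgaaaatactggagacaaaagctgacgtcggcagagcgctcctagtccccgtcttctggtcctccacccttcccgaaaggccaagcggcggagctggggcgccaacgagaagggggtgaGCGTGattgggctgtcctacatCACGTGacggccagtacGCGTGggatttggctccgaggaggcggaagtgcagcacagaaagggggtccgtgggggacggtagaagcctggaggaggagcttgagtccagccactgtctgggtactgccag
DNMT3B, chr20:32779602-32779901: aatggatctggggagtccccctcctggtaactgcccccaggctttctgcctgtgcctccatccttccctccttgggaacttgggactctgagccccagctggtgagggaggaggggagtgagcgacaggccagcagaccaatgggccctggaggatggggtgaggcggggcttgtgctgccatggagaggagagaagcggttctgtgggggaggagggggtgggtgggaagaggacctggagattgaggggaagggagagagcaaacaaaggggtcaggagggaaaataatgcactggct
TET1, chr10:68560087-68560386, the most upstream of 3 annotated windows: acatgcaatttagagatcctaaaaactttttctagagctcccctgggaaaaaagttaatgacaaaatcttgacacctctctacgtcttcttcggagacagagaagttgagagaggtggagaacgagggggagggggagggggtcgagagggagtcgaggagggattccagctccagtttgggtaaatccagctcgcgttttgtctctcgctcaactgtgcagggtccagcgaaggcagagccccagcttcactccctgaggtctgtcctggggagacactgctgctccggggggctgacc
The TDG window held 5 matches at 4 places, which began at -239, -102, -80 and -63 relative to the start. At least 1 match was found in 48.4% of 35116 promoter windows of this length, and 5 or more in 1.98%. The DNMT3B window and the most upstream TET1 window held no match, and a second TET1 window held 1. For DNMT3B, with 21 annotated transcripts, only the printed window was found, so starts elsewhere in the gene were not searched. Which of its transcripts begins there was not examined. Its match and CpG counts may therefore not be those of the main DNMT3B promoter. One of the TET3 windows also held 5, at 3 places, and every member but DNMT3B had a match in at least 1 of its windows. CpG dinucleotides, the substrate of these enzymes, numbered 22 in the TDG window, 10 in the TET1 window and 3 in the DNMT3B window, against a median of 14 over all windows. The letters TTTCGCGC and TTTGGCGC, bound by E2F factors, occurred in 1.15% of all windows and, among the 9 genes, in the DNMT1 window and in 1 of 3 UHRF1 windows. A match of letters describes the sequence and does not show that a factor binds there.

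Measured per length, as CPM per kb of the longest coding transcript, the maintenance pair was the most abundant. In normoxic PC3 cells DNMT1 stood at 51.3 ± 4.09 CPM per kb (SD, n = 4) and UHRF1 at 43.6 ± 3.19 CPM per kb, and the ranges of these 2 neighbours overlapped. MBD2 followed at 21.3 CPM per kb, TDG at 12.3, DNMT3B at 2.86, TET3 at 2.51, DNMT3A at 1.68 and TET2 at 1.47, all as means of CPM per kb. TET1 was last at 0.353 ± 0.0657 CPM per kb and its range did not reach that of TET2. Neighbours with overlapping ranges in this group were also DNMT3B with TET3 and DNMT3A with TET2. The order depends on the length used: with the median length of a gene's transcripts MBD2 came 2 and UHRF1 3, and with the union of the exons UHRF1 came 1 and DNMT1 2, while TET1 was last with each.

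The order in normoxic HCT116 cells differed in the middle. DNMT1, at 44.9 ± 2.14 CPM per kb (SD, n = 3), and UHRF1, at 37.3 ± 2.30, again came first, and their ranges did not overlap. TDG came next at 23.8 CPM per kb, above MBD2 at 17.4, and DNMT3B reached 8.08 CPM per kb, clear of TET3 at 3.04. DNMT3A, at 0.903 CPM per kb, lay below TET2, at 1.90, and TET1 was last at 0.396 ± 0.0459. In this group no neighbours overlapped. In hypoxia DNMT1 and UHRF1 stayed first and TET1 last in both lines, and the only other changes of rank were between neighbours: TET3 and DNMT3B, and TET2 and DNMT3A, in PC3, and MBD2 and TDG in HCT116, and each of these pairs overlapped in hypoxia.

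**Figure D1:**
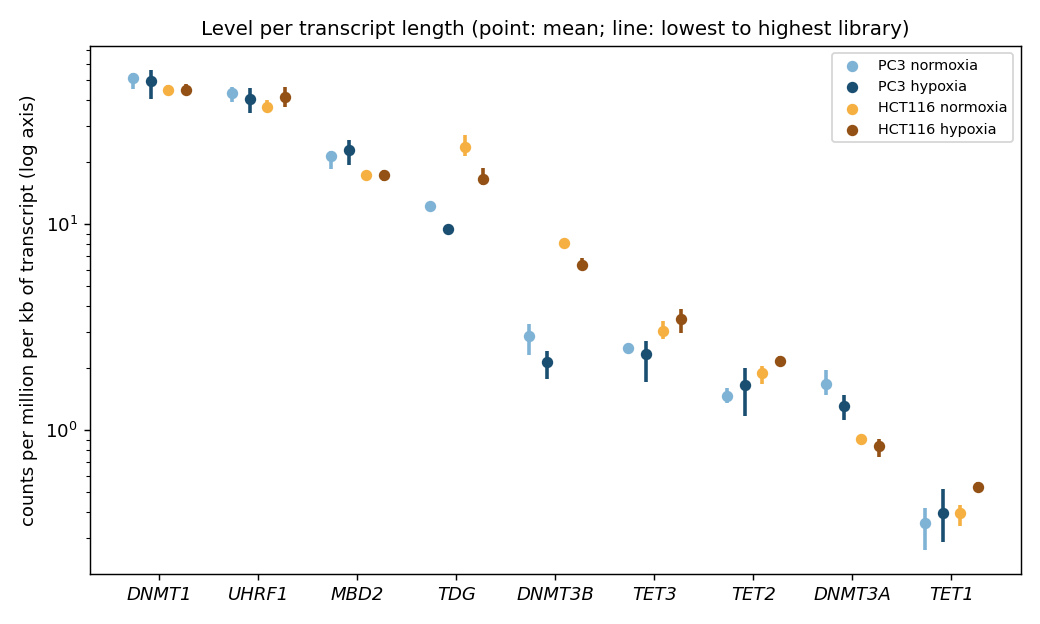
Level of the 9 transcripts in CPM per kb of the longest coding transcript, on a log axis, in the 4 groups; points are means over 4 (PC3) or 3 (HCT116) libraries and lines run from the lowest to the highest library. DNMT1 and UHRF1 lie highest and TET1 lowest in every group, and DNMT3B and TDG show the widest gaps between the lines.

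Hypoxia left most of these transcripts within the spread of the replicates. In PC3, TDG alone was past the threshold of an adjusted p of 0.05 by edgeR's quasi-likelihood test, 1 of 9, where 11.3% of all 14309 genes tested were called, 6.03% as higher and 5.29% as lower. The same comparison with the replicate number as a block called TDG and DNMT3B, 2 of 9, both as lower, against 28.5% of all genes (14.9% higher, 13.6% lower). In HCT116, 3 of 9 were called, TET1 as higher and DNMT3B and TDG as lower, against 25.9% of all 14120 genes (14.6% higher, 11.3% lower). The median log2 fold change of the 9 was -0.09 in PC3 and 0.02 in HCT116, beside 0.00233 and 0.00178 over all genes tested.

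TDG, the glycosylase, lies on chromosome 12 from 104359600 to 104382652 of GRCh37, plus strand, and was lower in hypoxia in both lines. Its level in the normoxic PC3 libraries was 39.8, 40.5, 37.9 and 38.4 CPM for replicates 1 to 4, and in the hypoxic ones 31.2, 30.1, 31.3 and 28.6 CPM. The groups did not overlap, and TDG fell in all 4 pairs of the same number, by between 0.27 and 0.43 on the log2 scale. The fitted log2 fold change in PC3 was -0.36 ± 0.06 (SE), with an adjusted p of 0.00763, which is a level 0.777 times that in normoxia. With the block the adjusted p was 0.00309.

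In HCT116 the TDG level was 72.9, 68.5 and 86.1 CPM in normoxia and 59.6, 49.4 and 50.03 CPM in hypoxia. All 3 hypoxic libraries were below all 3 normoxic ones. The log2 fold change was -0.50 ± 0.10 (SE), adjusted p 0.00520. In PC3 the call held without any single library, with adjusted p of up to 0.0386, but not without both libraries numbered 2 (log2 fold change -0.34, adjusted p 0.142) or both numbered 3 (-0.39, 0.0689). In HCT116 it held under all 18 alternatives, with adjusted p of up to 0.0309.

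DNMT3B, the de novo methyltransferase on chromosome 20 (31350191 to 31397165, plus strand, GRCh37), was measured at 10.1, 13.2, 12.04 and 14.2 CPM in normoxic PC3 cells and at 7.73, 9.94, 10.5 and 9.09 CPM in hypoxic ones. The lowest normoxic library, replicate 1, lay within the hypoxic range, and within each number the hypoxic library was the lower, in 4 of 4 pairs. The log2 fold change of -0.41 ± 0.12 (SE) had an adjusted p of 0.0635 without the block and 0.0115 with it (-0.40 ± 0.08). Without normoxia replicate 1 the adjusted p was 0.0302, without hypoxia replicate 1 it was 0.109 and without hypoxia replicate 4 it was 0.0960. No other single library left out gave a call, with adjusted p of up to 0.174 without normoxia replicate 2.

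In HCT116 DNMT3B stood at 36.2, 34.2 and 34.6 CPM in normoxia and at 26.9, 26.3 and 29.7 CPM in hypoxia. The 2 sets of libraries did not overlap. DNMT3B fell by 0.32 ± 0.07 on the log2 scale (SE), adjusted p 0.00499. The call was lost without both libraries numbered 2 (adjusted p 0.0546) and in one fit over both lines (0.0878).

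DNMT3A, the other de novo methyltransferase, on chromosome 2 (25450724 to 25565459, minus strand, GRCh37), was lower in all 4 PC3 pairs too, from 14.04, 15.4, 15.7 and 18.7 CPM to 12.01, 13.4, 14.1 and 10.6 CPM. The groups overlapped narrowly, at replicate 1 of normoxia and replicate 3 of hypoxia. Its log2 fold change was -0.34 ± 0.11 (SE), with an adjusted p of 0.0791 without the block and 0.0591 with it. The pair numbered 4 had the widest gap, and without it the log2 fold change was -0.19. In HCT116 the value was -0.09 ± 0.09, adjusted p 0.490, and the 6 libraries lay between 7.07 and 8.94 CPM.

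**Figure D2:**
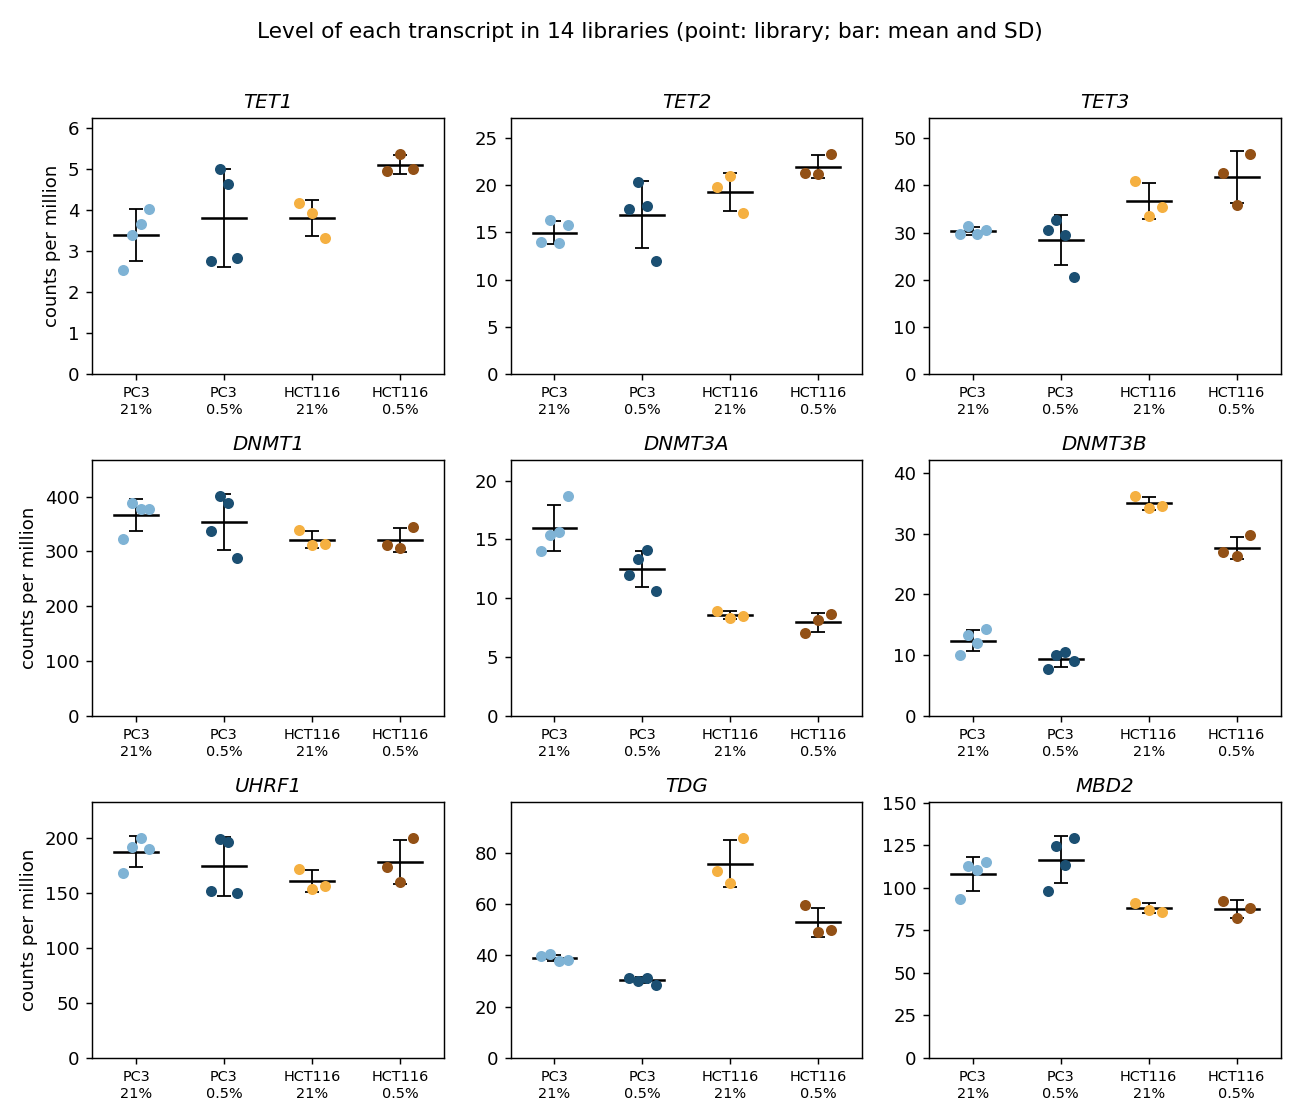
Level of each of the 9 transcripts in CPM in every library, by line and oxygen (21% or 0.5% O2), with the mean and SD; points of a group run from replicate 1 at the left. The TDG groups are apart in both lines, DNMT3B is apart in HCT116, and the lowest hypoxic PC3 point of TET2, TET3, DNMT1 and DNMT3A is replicate 4.

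TET1, the least abundant dioxygenase per length, lies on chromosome 10 (70320094 to 70454244, plus strand, GRCh37). In HCT116 its level was 4.17, 3.92 and 3.32 CPM in normoxia and 4.94, 5.37 and 5.00 CPM in hypoxia. Every hypoxic library was above every normoxic one. TET1 rose by a log2 fold change of 0.44 ± 0.11 (SE), 1.36-fold, with an adjusted p of 0.0145. That p was 0.0507 without normoxia replicate 3, the lowest library, where the log2 fold change was 0.35, 0.0934 without both libraries numbered 2, 0.0752 without both numbered 3 and 0.244 in one fit over both lines. In PC3 the hypoxic libraries split, with 2.75, 5.01, 4.64 and 2.82 CPM against 2.53, 3.39, 3.65 and 4.02 CPM in normoxia. The log2 fold change there was 0.17 with a 95% interval from -0.34 to 0.67, adjusted p 0.672. It was 0.29 without hypoxia replicate 4, 0.29 without hypoxia replicate 1, 0.02 without hypoxia replicate 2 and 0.06 without normoxia replicate 1, and none of these was past the threshold.

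TET2, a TET enzyme that lacks the CXXC DNA-binding domain, stood at 19.8, 21.0 and 17.1 CPM in normoxic and 21.3, 21.2 and 23.3 CPM in hypoxic HCT116 cells. The groups did not overlap, by a margin of 0.01 on the log2 scale in the closest pair of the same number, and the log2 fold change of 0.20 ± 0.08 had an adjusted p of 0.0884. In PC3 it was 14.02, 16.3, 13.8 and 15.8 CPM in normoxia and 17.5, 20.3, 17.8 and 11.96 CPM in hypoxia. The first 3 hypoxic libraries were above all normoxic ones and replicate 4, the library that stood apart, was below them all. With it the log2 fold change was 0.18 ± 0.14 (adjusted p 0.462), without it 0.32 ± 0.08 (adjusted p 0.0398), and without both libraries numbered 4 it was 0.34 (adjusted p 0.0655). The value was 0.15 without hypoxia replicate 1 (adjusted p 0.551) and 0.09 without hypoxia replicate 2 (adjusted p 0.765). Of 21 alternatives in PC3, 1 gave a call for TET2.

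TET3 in PC3 was at 29.7, 31.4, 29.7 and 30.4 CPM in normoxia and at 30.5, 32.7, 29.4 and 20.6 CPM in hypoxia. Replicate 4 again was the low library, and without it the log2 fold change moved from -0.09 to 0.04, with adjusted p of 0.681 and 0.693. Without hypoxia replicate 1 it was -0.14. In HCT116 TET3 had a log2 fold change of 0.20, 95% interval -0.01 to 0.42, adjusted p 0.153, which was 0.0408 without hypoxia replicate 2. All 3 same-numbered pairs of HCT116 libraries were higher in hypoxia for TET1, TET2 and TET3, and for UHRF1 as well. Any pairing by number was weak in that line, and the share of all genes with this pattern was not computed. Of these genes only TET1 was called.

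The maintenance factors gave no call in either line. DNMT1, on chromosome 19 (10244018 to 10341962, minus strand, GRCh37), was at 324, 388, 378 and 378 CPM in normoxic PC3 cells and at 337, 402, 388 and 289 CPM in hypoxic ones. Hypoxia replicate 4 was the only hypoxic library below its normoxic partner, and without it the log2 fold change moved from -0.05 to 0.04. The 95% interval with all libraries, -0.29 to 0.19, bounds the change in PC3, and that in HCT116 was -0.13 to 0.16 around 0.02. UHRF1, also on chromosome 19, had log2 fold changes of -0.10 (95% interval -0.34 to 0.14) in PC3 and 0.16 (-0.02 to 0.34) in HCT116. The PC3 value was -0.03 without hypoxia replicate 4 and -0.05 without hypoxia replicate 1. The UHRF1 level lay between 149.6 and 200.3 CPM in all 14 libraries, and the conditions overlapped in both lines. MBD2, the methyl-CpG reader, was higher in hypoxia in 4 of 4 PC3 pairs, by 0.04 to 0.17 on the log2 scale, and the fit gave 0.11 ± 0.09 with an adjusted p of 0.480, or 0.121 with the block. The value was 0.18 without hypoxia replicate 1, and 0.06 without hypoxia replicate 4 or normoxia replicate 1, with no call. In HCT116 its log2 fold change was 0.01, 95% interval -0.13 to 0.16. Of 18 alternatives in HCT116, 12 kept the sign of the DNMT1 value and 9 that of MBD2.

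**Figure D3:**
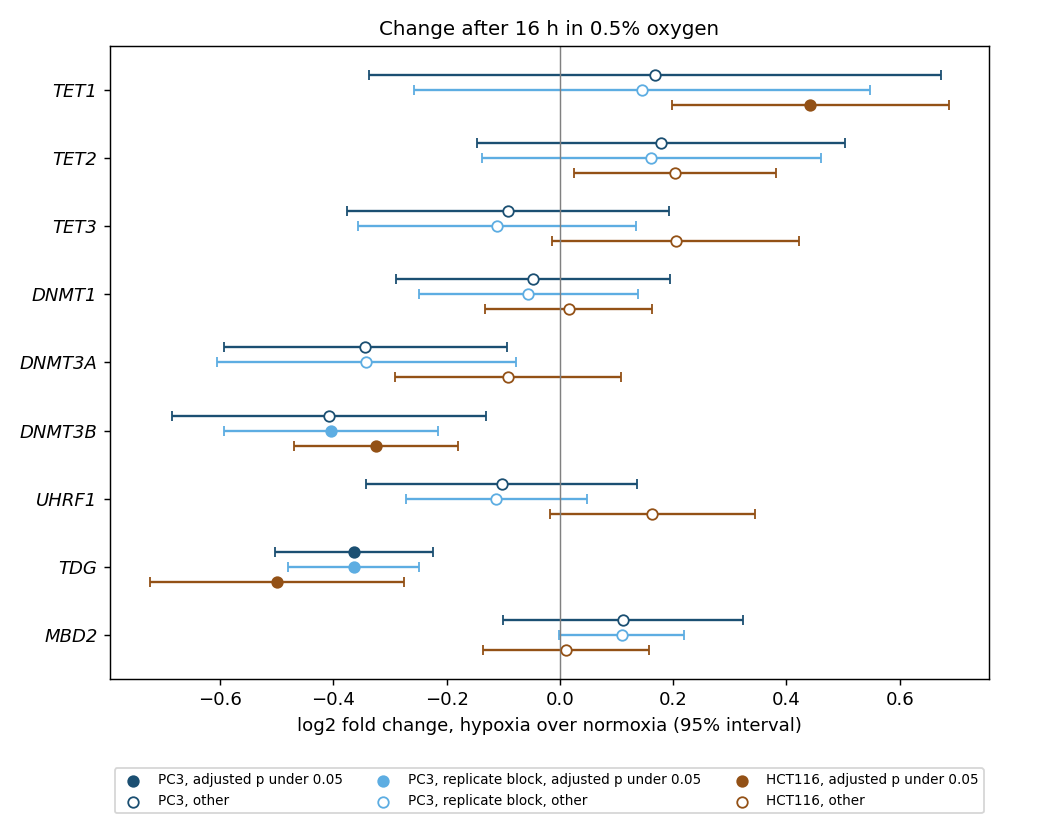
Log2 fold change of hypoxia over normoxia with its 95% interval for each transcript, in PC3 (dark blue, with the replicate block in light blue) and HCT116 (brown); filled points have an adjusted p under 0.05 over all genes tested. TDG lies left of 0 in all 3 fits, DNMT3B is filled in HCT116 and in the blocked PC3 fit, and TET1 is filled in HCT116.

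The responses of the lines were compared directly through the interaction of line and oxygen over all 14 libraries. Without the block none of the 9 was past the threshold, 0 at an unadjusted p under 0.05 and 0 by DESeq2, where 2.32% of 15493 genes were called (1.01% with the larger value in PC3 and 1.31% with the larger value in HCT116). For TET1, called in HCT116 and not in PC3, the response in PC3 minus that in HCT116 was -0.26 on the log2 scale, with a 95% interval of -0.89 to 0.37 that spans 0. For TDG the difference was 0.15 (-0.11 to 0.41) and for DNMT3B -0.07 (-0.42 to 0.28). The largest differences in size were TET3, -0.28 (-0.68 to 0.11), TET1, UHRF1, -0.25 (-0.59 to 0.08), and DNMT3A, -0.24 (-0.59 to 0.11). These sizes depend on single choices and libraries. Over 21 alternatives the TET3 difference ran from -0.38 to -0.16 and that of TET1 from -0.42 to -0.13. That of UHRF1 ran from -0.32 to -0.16 and that of DNMT3A from -0.31 to -0.16. With the replicate block the UHRF1 difference was -0.26 (-0.51 to -0.01), with an unadjusted p of 0.0419 by edgeR and an adjusted p of 0.187.

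The lines themselves were far apart. In normoxia 8 of 9 were called, DNMT1, DNMT3A, UHRF1 and MBD2 as higher in PC3 and TET2, TET3, DNMT3B and TDG as lower, but 83.4% of all 15206 genes were called in this comparison (42.9% higher, 40.5% lower). In hypoxia 6 of 9 were called, 2 as higher and 4 as lower, against 78.7% of 14890 genes (40.6% higher, 38.1% lower). The members' shares are near the background. The comparisons of the lines share libraries with those of oxygen.

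DNMT3B differed most. In normoxia it stood at 10.1 to 14.2 CPM in PC3 and at 34.2 to 36.2 CPM in HCT116, a log2 fold change of -1.52 ± 0.10 (SE, adjusted p 4.26e-07), or 0.349 times the HCT116 level. In hypoxia the log2 fold change was -1.57 ± 0.11 (adjusted p 6.12e-07). No PC3 library reached the lowest HCT116 library in either condition. DNMT3A went the other way, with 14.04 to 18.7 CPM in PC3 and 8.29 to 8.94 CPM in HCT116 in normoxia, a log2 fold change of 0.87 ± 0.10 (adjusted p 1.95e-05), and 0.66 ± 0.13 in hypoxia (adjusted p 0.000880). The ranges of DNMT3A were apart in both conditions.

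TDG was lower in PC3 by 0.97 ± 0.08 on the log2 scale in normoxia (adjusted p 2.11e-06) and by 0.80 ± 0.09 in hypoxia (1.52e-05), with no overlap. Its lowest HCT116 level, 49.4 CPM in hypoxia, exceeded the highest PC3 level, 40.5 CPM in normoxia. Among the TET enzymes, TET2 had a log2 fold change of -0.38 ± 0.09 in normoxia (adjusted p 0.00304) and -0.37 ± 0.16 in hypoxia (0.0474). The latter lay past the threshold under 6 of 14 alternatives, and was lost without PC3 replicate 1 or 3 or any HCT116 library, with adjusted p of up to 0.136. TET3 had -0.29 ± 0.07 (0.00432) and -0.56 ± 0.15 (0.00708). The TET3 value in hypoxia ran from -0.66 to -0.42 over 14 alternatives and was past the threshold in each. TET1 had -0.18 ± 0.16 (0.305) and -0.42 ± 0.22 (0.109, or 0.0401 without PC3 hypoxia replicate 2).

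MBD2 was higher in PC3, at 93.6 to 115 CPM against 85.8 to 91.3 CPM in normoxia, with log2 fold changes of 0.28 ± 0.07 in normoxia (adjusted p 0.00517) and 0.41 ± 0.11 in hypoxia (0.00459). The calls of the maintenance pair in normoxia were the least firm. The alternatives for the lines include the replicate block, which here matches PC3 with HCT116 libraries of the same number. Same-number correlations between the lines in normoxia were only -0.0332, -0.0144 and 0.0143, so that block had no visible pairing to account for. With it the calls of DNMT1 (edgeR adjusted p 0.145) and UHRF1 (0.0699) were lost. DNMT1 had 0.17 ± 0.07 (adjusted p 0.0475) with overlapping ranges and stayed past the threshold under 6 of 14 alternatives, and the call was lost without PC3 replicate 2, 3 or 4 or HCT116 replicate 2 or 3 (adjusted p up to 0.155). UHRF1 had 0.20 ± 0.07 (0.0215) and stayed past it under 8 of 14, and its call was lost without replicate 2 or 3 of either line (adjusted p up to 0.0929). In hypoxia DNMT1 had 0.14 (adjusted p 0.301, or 0.0423 without PC3 replicate 4) and UHRF1 -0.03 (0.856).

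**Figure D4:**
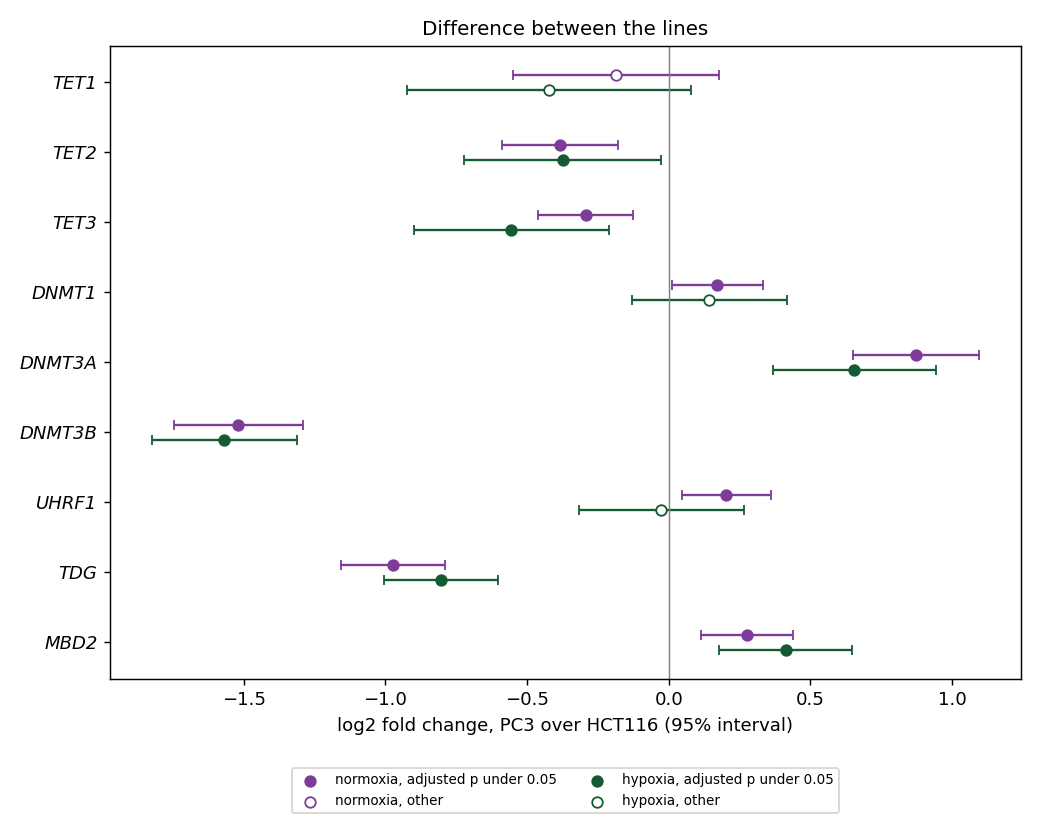
Log2 fold change of PC3 over HCT116 with its 95% interval for each transcript, in normoxia (purple) and hypoxia (green); filled points have an adjusted p under 0.05 over all genes tested. DNMT3B and TDG lie farthest to the left and DNMT3A farthest to the right in both conditions, and TET1 is open in both.

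The make-up of each family was computed within each library, so that the scaling between libraries cancels, but it depends on the transcript lengths, here those of the longest coding transcripts. DNMT3B supplied 62.9% ± 1.74 (SD, n = 4) of the summed DNMT3A and DNMT3B level per kb in normoxic PC3 cells and 89.9% ± 0.0848 (n = 3) in normoxic HCT116 cells. In hypoxia the shares were 61.9% ± 2.74 and 88.4% ± 0.86. The lines did not overlap, and in HCT116 the hypoxic range, 87.6% to 89.3%, was below the normoxic one. With the median transcript length the normoxic DNMT3B share was 37.3% ± 1.77 in PC3, so that DNMT3A was then the larger part, and 75.8% ± 0.172 in HCT116. With the union of the exons it was 60.8% ± 1.78 and 89.1% ± 0.091. The lines were apart with each length.

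Of the 3 TET transcripts, TET3 made up most of the summed level per kb and TET1 least. In PC3 TET3 held 58.0% ± 1.67 in normoxia and 53.4% ± 1.81 in hypoxia, and TET2 33.9% ± 1.21 and 37.6% ± 0.508, with ranges that did not overlap for either gene. TET1 held 8.12% ± 1.32 and 8.95% ± 1.82. In HCT116 the TET3 share was 57.0% ± 3.44 in normoxia and 56.1% ± 2.77 in hypoxia that of TET2 35.6% ± 3.13 and 35.2% ± 1.68, and that of TET1 7.41% ± 0.41 and 8.70% ± 1.13. With the median transcript length the normoxic TET3 share was 81.9% ± 0.993 in PC3 and 81.3% ± 2.19 in HCT116, with TET1 at 3.23% and 2.98%. With the union of the exons TET3 held 63.1% to 67.3% in PC3 and 60.7% to 66.4% in HCT116 in normoxia. These shares were not tested.

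**Figure D5:**
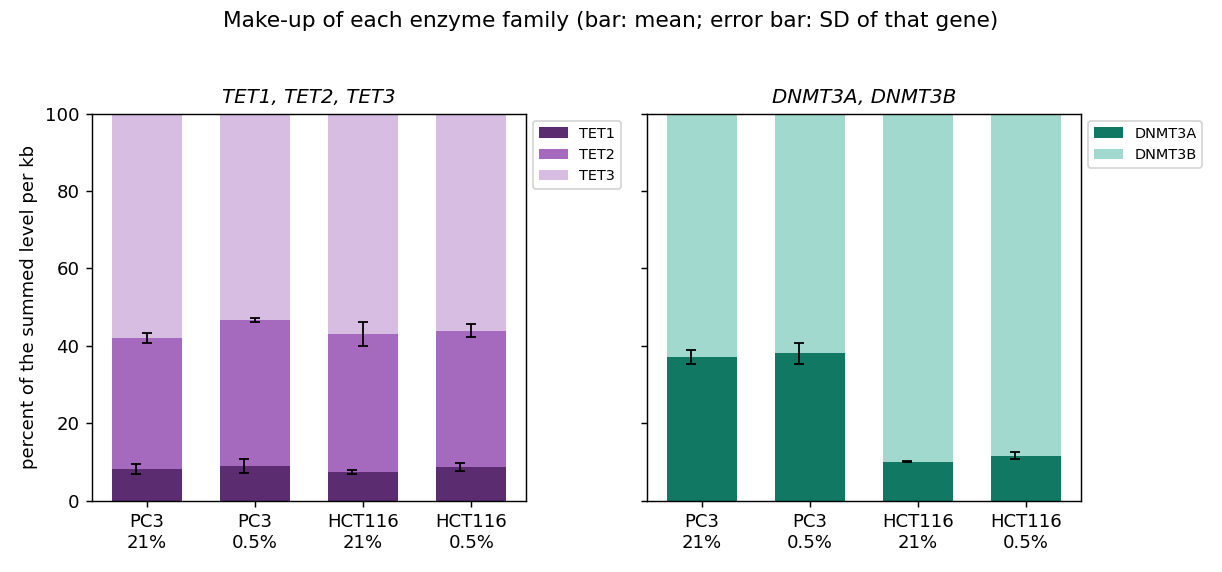
Mean share of each transcript in the summed level per kb of the longest coding transcript, for the TET family and the de novo methyltransferases, by line and oxygen (21% or 0.5% O2); the error bar at the top of a segment is the SD of that gene's share over 4 or 3 libraries, and the topmost segment has none. DNMT3B takes 61.9% to 62.9% in PC3 and 88.4% to 89.9% in HCT116, and TET1 takes 7.41% to 8.95% in all groups.

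Ratios of 2 counts in the same library were tested for the effect of oxygen by an exact two-sided permutation test, 8 tests in all. In HCT116 the ratio of DNMT3B to DNMT3A counts was 4.06 to 4.12 in normoxia and 3.22 to 3.81 in hypoxia. That of UHRF1 to DNMT1 was 0.493 to 0.508 and 0.522 to 0.579, and that of TET1 to TET2 0.187 to 0.211 and 0.214 to 0.254. None of these 3 overlapped between the conditions, each with an exact permutation p of 0.1, the smallest that 3 against 3 libraries can give, and 0.267 adjusted over the 8. TET1 to TET3 had an exact permutation p of 0.3 in HCT116. In PC3, where 4 against 4 can reach 0.0286, the exact permutation p of the 4 ratios lay between 0.314 and 0.914. With the PC3 libraries paired by number, the TET1 to TET3 ratio was higher in hypoxia in 4 of 4 pairs. It went from 0.0853, 0.108, 0.123 and 0.132 to 0.0900, 0.153, 0.158 and 0.136. Its paired exact permutation p was 0.125, the smallest that 4 pairs can give, and those of TET1 to TET2, DNMT3B to DNMT3A and UHRF1 to DNMT1 were 0.875, 0.5 and 0.375.

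The wider pathway was described with gene lists, by counts past the threshold. Of 8 tested cofactors of DNA methylation, PC3 had 0 higher and 1 lower in hypoxia, CDCA7, a partner of the remodeller HELLS (48.5 ± 6.62 to 30.5 ± 6.31 CPM, log2 fold change -0.67, adjusted p 0.0227). HCT116 had 1 higher, CDCA7L (0.27, adjusted p 0.00995), and 1 lower, TRDMT1, a methyltransferase of tRNA (-0.38, 0.0106). The median log2 fold change of the list was 0.03 in PC3 and -0.01 in HCT116, and 1 of 8 and 2 of 8 were called, beside 11.3% and 25.9% of all genes.

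Of the partners of TET enzymes and the repair genes of active demethylation, 18 were tested in PC3 and 19 in HCT116. In PC3, CXXC5, a CXXC-domain protein that binds TET2, rose by 0.56 ± 0.08 on the log2 scale (SE, adjusted p 0.00365), and LIG3, a DNA ligase of base excision repair, fell by 0.43 ± 0.08 (0.00912). These are 2 of 18, beside 11.3% of all genes, and with the block 2 were higher and 4 lower, 6 of 18, beside 28.5%. In HCT116, 3 were higher and 3 lower, 6 of 19, beside 25.9%. The median log2 fold change was -0.08 in PC3 and 0.02 in HCT116. IDH2, a mitochondrial enzyme that makes oxoglutarate, rose from 23.1 ± 2.00 to 39.5 ± 4.74 CPM (log2 fold change 0.79, adjusted p 0.000173), and GADD45B rose by 0.47 (0.00212). MBD4, a glycosylase that like TDG removes thymine from mismatches with guanine, fell by 0.44 ± 0.07 (0.00124), and OGT, a glycosyltransferase that binds TET proteins, fell by 0.31 (0.0150).

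Of the 19 methyl-CpG readers and NuRD subunits, 1 was higher in PC3, ZBTB38 (0.70 ± 0.14, adjusted p 0.0166), and none was lower, beside 11.3% of all genes, and with the block 4 were higher and 1 lower, beside 28.5%. In HCT116, beside 25.9% of all genes, 3 were higher, MBD3 (0.47, adjusted p 0.00251) and the NuRD helicase CHD3 (0.35, 0.00643) first, and none was lower. The median log2 fold change was 0.08 in PC3 and -0.03 in HCT116.

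Replication genes were counted because DNMT1 and UHRF1 are transcribed with S phase. Of 31 such genes in PC3, 0 were higher and 2 lower in hypoxia, RFC4 (-0.41, adjusted p 0.0171) and CHAF1B (-0.35, 0.0194), beside 11.3% of all genes called, and with the block 6 were lower, beside 28.5%. In HCT116, where 25.9% of all genes were called, 4 were higher, RRM2 (0.26, 0.0216) among them, and 4 lower, RFC4 again (-0.50, 0.000422). The median log2 fold change was -0.05 in PC3 and 0.03 in HCT116. Between the lines in normoxia, 26 of the 31 were lower in PC3 and 1, E2F1, was higher, 27 of 31 beside 83.4% of all genes (40.5% lower), with a median log2 fold change of -0.86 beside 0.03 over all genes. DNMT1 and UHRF1 were not lower in PC3 in that comparison, and DNMT3B and TDG were. Whether the proliferation of the cultures bears on these levels was not tested.

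The genes whose levels moved most like each member were sought among 9517 genes of at least 5 CPM in both lines, by Pearson's r of log2 CPM over the 14 libraries after each line's mean was subtracted. The libraries share their depth and their oxygen condition, so the r values are descriptions. The outlying PC3 libraries were included, and r was not computed without them. Those of TDG were ZFAND1 (0.976), METTL6 (0.976) and UBLCP1 (0.974), each also called as lower in hypoxia in both lines. The effect of oxygen was not removed before r was computed, so the choice of these genes favours such calls. Those of DNMT3B were CHTF18 (0.981), a subunit of a replication clamp loader, TRABD (0.973) and RAD54L (0.963), a factor of homologous recombination. None of them was called in PC3, and in HCT116 CHTF18 and RAD54L were called as lower and TRABD was not called. The closest to the other members were TOP2B (0.914) for TET1, ASH1L (0.939) for TET2, ZNF335 (0.972) for TET3, NOP14 (0.950) for DNMT1, HOOK2 (0.951) for DNMT3A, POLR1A (0.963) for UHRF1 and IRAK1 (0.957) for MBD2. Among the 9 themselves the highest r was between DNMT1 and UHRF1, at 0.866, followed by DNMT3A and DNMT3B at 0.836, and the lowest was between TET1 and TDG, at -0.49.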

How the data were processed

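The authors aligned paired-end reads of polyadenylated RNA with HISAT2, removed reads of the ERCC spike-in, aligned the rest to GRCh37 and counted them on RefSeq genes with HTSeq. They deposited raw counts per gene and library, without normalisation. The RefSeq release, the strandedness of counting and the sequencer of each library (2 models were used) are not given in the sources used here, so overlapping genes, such as S1PR2 over DNMT1 (506 to 1095 counts), and processed pseudogenes of TET1, DNMT3A and TDG leave those counts uncertain. The authors call the replicates biological. The spike-in counts are not used here, so levels are relative to the other transcripts of a library.

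The 9 members and the gene lists were chosen with earlier results of these data known. Groups came from the labels. Counts were analysed in edgeR 4.0.16 (R 4.3.3): filterByExpr by group, TMM scaling, and the two-sided quasi-likelihood test with Benjamini-Hochberg adjustment over all genes tested, with a threshold of 0.05, within each line, between the lines in each condition, and as the interaction over all libraries. Each SE was taken from the fit as the unshrunk log2 fold change over the root of its F statistic. CPM of the prostate and colon markers were taken per total counts of a library, without TMM factors. All other CPM used TMM factors over all 14 libraries, and log2 CPM a prior count of 2. Transcript lengths came from GENCODE 44 on GRCh37 and promoters from RefSeq on GRCh38.p14. Ratios were tested in SciPy. All members are named. From each list at most 4 genes past the threshold are named per hypoxia comparison, the 2 largest rises and the 2 largest falls, and E2F1 was named after its value was seen. One gene that the rule names is not reported here. The 3 genes most like each member were sought, and all 3 are named for TDG and DNMT3B.

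In PC3 the deviations of same-numbered libraries from group means correlated over 15493 genes at 0.595, 0.205, 0.115 and 0.238 for replicates 1 to 4. Between different numbers the correlations ran from -0.331 to 0.141, so replicates 1, 2 and 4 stood out as pairs and replicate 3 did not. Replicates differed by a chi-square of 12.5 to 268 per gene, far above counting error, and each library was counted as 1 replicate. Alternatives were scaling by total counts, upper quartile or median of ratios, no filter, at least 10 counts in every library, DESeq2 1.42.0, the replicate block, one fit over both lines, other transcript lengths, and each library left out. Thinning to the lowest total of the line, leaving out both libraries of a number and other lengths for the family shares were chosen after seeing the data. The tests were also run on simulated counts with 200 genes changed and no effect of the replicate number. Those counts therefore do not show how the block deals with such an effect.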

Additional observations from a re-analysis of the deposited data

Results flagged for a closer look

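DNMT1 in PC3 normoxia replicate 1 stood at 324 CPM, the lowest of its group, while the other 3 libraries lay between 378 and 388 CPM. Its gap to the nearest library was 0.843 of the range of the group, above Dixon's critical value for 4 samples. It was 1 of 26 groups of 4 libraries looked at, over the levels and ratios of the members, and chance flags about 1 in 20. The same library was also the lowest normoxic PC3 library for TET1, DNMT3A, DNMT3B, UHRF1 and MBD2.

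The difference of the hypoxia response between the lines was past the threshold for none of the 9 members (0 by edgeR, 0 by DESeq2 and 0 at an unadjusted p under 0.05 by edgeR). With the replicate block UHRF1 had an unadjusted p of 0.0419 by edgeR (-0.26 on the log2 scale, adjusted p 0.187). Of the genes in the lists, the response of OGT in PC3 minus that in HCT116 was 0.56 on the log2 scale (adjusted p 0.0238 for the interaction by edgeR), and that of ZBTB38 was 0.83 (0.0343). Of the HIF targets, the difference was -4.35 for CA9 (7.77e-05) and -2.26 for PDK1 (7.16e-06), each larger in HCT116.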

How the results depend on the processing

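The number of members past the threshold in PC3, 1 in the main analysis, was 2 with upper-quartile scaling, 2 with the replicate block, 2 without both libraries numbered 1, and 3 with total-count scaling, with DESeq2 and in one fit over both lines. It was 0 without both libraries numbered 2 and 0 without both numbered 3, and 1 to 2 with each library left out. The added calls were DNMT3B, which had an adjusted p of 0.0115 with the replicate block, DNMT3A (0.0398 with DESeq2) and, without hypoxia replicate 4, TET2. In HCT116 the number was 3, with 1 in one fit over both lines and 1 without both libraries numbered 2, and 2 to 4 with each library left out. Fewer libraries enter the fits without a pair, and in PC3 each such fit had the same number of libraries. These PC3 fits called 2 members without both numbered 1 and 1 without both numbered 4. They called 0 without both numbered 2 or both numbered 3. The cause of the losses and gains was not tested. Between the lines it was 8 in normoxia (6 to 8 with each library left out) and 6 in hypoxia (5 to 7), and for the difference of the responses it was 0 in every alternative. Of the values of single members under an alternative, 746 kept their side of the threshold, 16 gained a call, 30 lost one, and none that was called changed sign. With the median length of transcripts, 3 of 9 members kept their rank of level per kb, with the exon union 7, and the normoxic DNMT3B share in PC3 moved from 62.9% to 37.3% and 60.8%.

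Under total-count scaling the all-gene median in PC3 was -0.10 (log2) and the share of higher among called genes moved from 53.3% to 24.5%, and in HCT116 from 56.3% to 29.0%. Upper-quartile scaling moved that share to 39.4% in PC3 and from 43.5% to 29.3% for the difference of the responses. The share of all genes called in PC3, 11.3%, was 28.5% with the replicate block, 17.4% with DESeq2 and 7.27% without a filter. In HCT116, 25.9% became 11.2% in one fit over both lines, and for the difference 2.32% became 8.43% with the block. In HCT116 the same-number correlations were 0.0736, 0.0882 and 0.0595, beside -0.0509 to -0.0214 between different numbers, so any pairing there was weak. The block called 3 members in that line.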

Other observations

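Genes of the methionine cycle, which supplies the methyl donor of the DNA methyltransferases, were 14 and all were tested. In HCT116, 3 were higher in hypoxia and 1 lower, 4 of 14, where 25.9% of all genes were called. MTR, methionine synthase, rose by 0.56 ± 0.07 on the log2 scale (SE, edgeR adjusted p 0.000235), and MAT2A, which makes S-adenosylmethionine, fell from 276 ± 0.466 to 195 ± 16.3 CPM (SD, n = 3, log2 fold change -0.48, edgeR adjusted p 0.000691). In PC3, where 11.3% of all genes were called, none was past the threshold, and with the replicate block, which called 28.5% of all genes, 1 was, MAT2A (268 ± 25.1 to 203 ± 33.7 CPM, -0.40, 0.0174). The difference of the response between the lines was past the threshold for none of the 14.

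Of 12 germline genes that DNA methylation is known to silence in somatic cells, 4 passed the filter on low counts in PC3 and 1 in HCT116, and none of these was past the threshold in hypoxia. Of 15 genes of mitosis, none was past the threshold in PC3, beside 11.3% of all genes (2 higher with the block, beside 28.5%), and in HCT116, beside 25.9%, 2 were higher, MKI67 (0.39, adjusted p 0.00659) and CENPF (0.33, 0.00586), and 4 lower, CCNB1 (-0.41, 0.00445) and BUB1 (-0.28, 0.0103) among them.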
